A study of Mus musculus with 12 samples.

Results

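SPARC is a secreted glycoprotein that binds collagen, and the 10 genes described here encode SPARC itself (Sparc), a scavenger receptor that takes it up (Stab1), integrin chains of matrix receptors (Itgb1, Itgb3, Itgb5 and Itgav) and matrix proteins that it meets outside the cell (Fn1, Col1a1, Col1a2 and Col3a1). They were taken by gene symbol from the 47729 genes of the count matrix, with 1 row each, and all 10 passed the filter on low counts that left 15232 genes for testing. The genes were named by symbol, with no threshold on a measured value. The libraries are polyA RNA sequencing of adherent peritoneal macrophages of C57BL/6 mice, in 4 groups of 3. In the IL4c groups the mice received a complex of IL-4 (5 ug) and an antibody to IL-4 (25 ug), which prolongs the action of the cytokine, in 2 injections 2 days apart, with collection 2 days after the last of them. In the TG groups the mice received thioglycollate at 3%, an irritant that draws monocytes into the cavity, once, 4 days before collection. Cells were washed out with 7 ml of PBS, 3000000 were seeded per well, and after 2 h of adhesion 3 washes removed the unattached cells. Wells then stood for 24 h either with SPARC protein at 20 ug/ml (IL4c with SPARC, TG with SPARC) or with no treatment (IL4c untreated, TG untreated). The labels name no control protein, so SPARC is set against untreated wells. They also do not say whether the libraries of a group came from separate mice, so p-values measure only the spread between these samples, which may be technical.

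SPARC belongs to the matricellular proteins, which sit in the extracellular matrix and change how cells attach to it without building its fibres. Stabilin-1, the product of Stab1, is an endocytic receptor of alternatively activated macrophages that binds SPARC and carries it to lysosomes. Integrins are receptors of 1 alpha and 1 beta chain: the alpha v chain pairs with beta 1, beta 3 or beta 5 to bind fibronectin and vitronectin. Type I collagen is built from the chains of Col1a1 and Col1a2, and type III collagen from the chain of Col3a1. Fibroblasts are the usual source of both, while fibronectin is made by fibroblasts and macrophages.

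Estimated counts per library totalled 31501941 to 42288785, and 3 counts correspond to 0.0707 to 0.0974 CPM (counts scaled to library size with TMM factors, the scale of the levels below unless FPKM is named). The 8 macrophage markers summed to 12892 to 18779 CPM in IL4c with SPARC, 20528 to 27802 CPM in IL4c untreated, 30332 to 31083 CPM in TG with SPARC and 22097 to 34910 CPM in TG untreated, led by Lyz2, Itgam and Adgre1. Lyz2 alone had 4444 to 9577 CPM in IL4c with SPARC and 11679 to 20372 CPM in IL4c untreated. Both TG libraries with the number 1 differed from numbers 2 and 3: B cell markers summed to 1909 CPM with SPARC and 2464 CPM untreated in them, while numbers 2 and 3 had 177 to 215 CPM with SPARC and 274 to 285 CPM untreated. Results that rest on these libraries are given with and without them. Libraries of 1 injection that carry the same number deviated together from their group means, so for the effects of SPARC the value with the number as a block is given wherever it changes a call. A gene was called, or passed, where the quasi-likelihood p of edgeR, adjusted over the 15232 genes by Benjamini-Hochberg, was under 0.05. Of the 8 macrophage markers, 1 was called higher and 2, Lyz2 among them, lower with SPARC in IL4c cells, against 27.8% of all genes. In TG cells none was called, against 11.3%.

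Reference promoters, from 250 bases before to 50 bases after the start that RefSeq gives a gene, were found for 7 of the 10 genes (RefSeq, GRCm38.p6). The promoters of Sparc, Col1a2 and Col3a1 are shown because the RNA levels of these genes followed each other across the 12 libraries. Capitals mark matches, on either strand, to the TATA box (TATAAA), the CCAAT box (CCAAT) or the GC box (GGGCGG), and none of the matches overlap. Positions are chr11:55420031-55420330, minus strand, for Sparc, chr6:4505368-4505667, plus strand, for Col1a2, and chr1:45311288-45311587, plus strand, for Col3a1. The RefSeq start is that of the GENCODE gene for Col3a1, but lies 804 bases downstream of it for Col1a2 and 3103 bases downstream for Sparc.
Sparc: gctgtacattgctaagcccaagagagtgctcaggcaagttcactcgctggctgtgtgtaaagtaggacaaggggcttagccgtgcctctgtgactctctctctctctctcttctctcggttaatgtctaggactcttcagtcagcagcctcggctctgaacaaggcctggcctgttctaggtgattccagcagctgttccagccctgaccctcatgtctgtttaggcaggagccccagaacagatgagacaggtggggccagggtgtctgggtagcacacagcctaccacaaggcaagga
Col1a2: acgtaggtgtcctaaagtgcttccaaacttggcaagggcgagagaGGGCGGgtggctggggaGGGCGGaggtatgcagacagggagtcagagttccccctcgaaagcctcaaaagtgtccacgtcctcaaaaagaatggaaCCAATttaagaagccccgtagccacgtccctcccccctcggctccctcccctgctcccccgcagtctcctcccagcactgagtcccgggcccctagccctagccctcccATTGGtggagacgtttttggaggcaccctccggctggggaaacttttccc
Col3a1: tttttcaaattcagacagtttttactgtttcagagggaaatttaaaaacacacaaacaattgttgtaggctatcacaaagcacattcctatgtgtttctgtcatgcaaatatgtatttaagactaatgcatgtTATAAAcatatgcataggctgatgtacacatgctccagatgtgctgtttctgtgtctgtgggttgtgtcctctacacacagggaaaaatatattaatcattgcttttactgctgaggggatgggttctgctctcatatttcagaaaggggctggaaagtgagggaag
Col1a2 has 2 GC boxes, which begin 205 and 188 bases before the start, a CCAAT box that begins 109 bases before it and a second CCAAT box on the opposite strand at the start. Col3a1 has a match to the TATA box letters that begins 117 bases before the start, and the Sparc window has none of the 3 motifs. Of 32851 mouse promoters of the same length, 13.6% hold the TATA box, 37.4% the CCAAT box and 35.7% the GC box. The windows of Sparc, Col1a2 and Col3a1 share none of these motifs, which says nothing of sequence outside them, and their GC content is 55.3%, 61.0% and 37.7%. The repeat GGAGGAGG occurs in 8.89% of promoters and in none of these 3.

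Set against each other per length of transcript (FPKM), fibronectin RNA had the highest mean of the 10 in every group and Itgb1 RNA the next. Fn1 averaged 594 ± 145 FPKM in IL4c with SPARC, 842 ± 301 FPKM in IL4c untreated, 506 ± 424 FPKM in TG with SPARC and 262 ± 179 FPKM in TG untreated (SD, n = 3 each). Itgb1 averaged 337 ± 19.3 FPKM, 264 ± 50.8 FPKM, 189 ± 0.629 FPKM and 203 ± 25.1 FPKM in the same groups, and its libraries overlapped with those of Fn1 in TG untreated. There the order rests on library number 1, where Fn1 had 467 FPKM and Itgb1 175.5 FPKM. Fn1 was below Itgb1 in number 2 (133 against 211 FPKM) and number 3 (187 against 224 FPKM). Stab1, Itgb5 and Itgav followed in all groups, at means of 23.8 to 85.3 FPKM. The order among these 3 differed between groups, and neighbours in it overlapped in IL4c untreated (Itgav with Itgb5, Itgb5 with Stab1) and in both TG groups (Stab1 with Itgb5). Sparc, the 3 collagen genes and Itgb3 came last. In the IL4c groups these 5 genes had means of 0.127 to 2.37 FPKM, and in the TG groups of 1.45 to 11.8 FPKM, and every pair of neighbours among them overlapped.

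**Figure D1:**
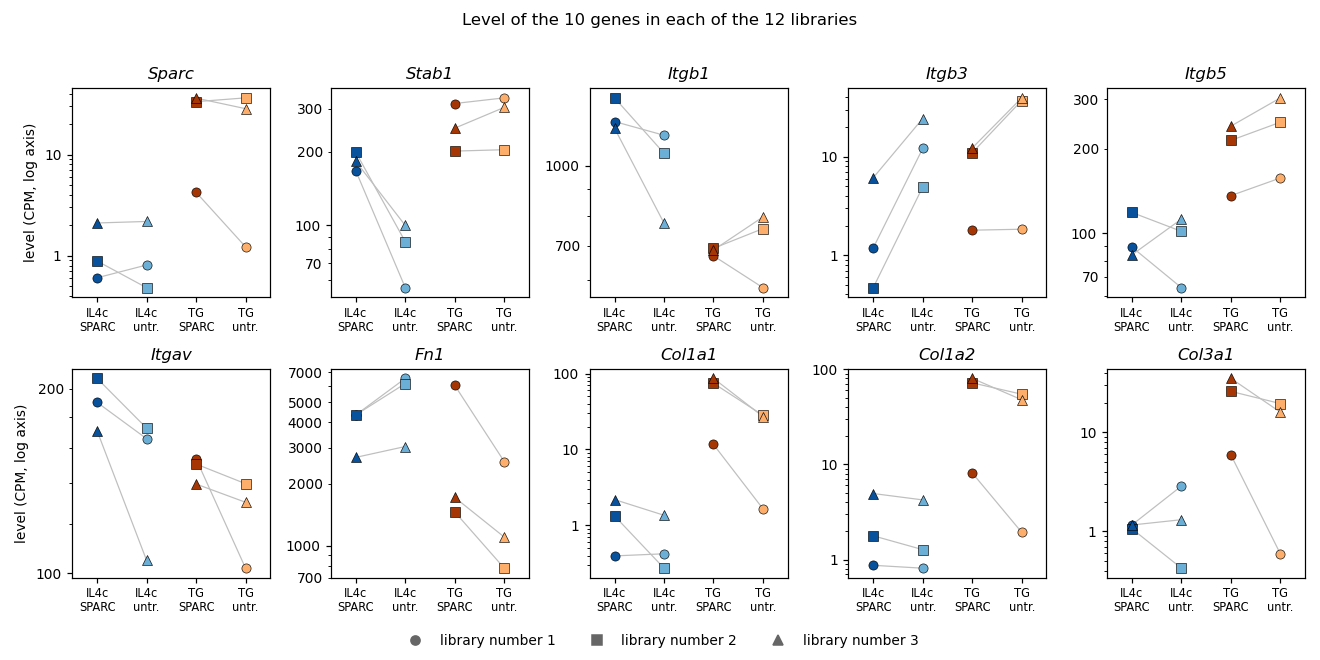
Level of each of the 10 genes (CPM, log axis) in the 12 libraries, in the order IL4c with SPARC, IL4c untreated, TG with SPARC and TG untreated; the symbol gives the library number and grey lines join libraries of 1 injection with the same number. Stab1 lies between 167 and 199 CPM in IL4c with SPARC and between 55.6 and 99.95 CPM in IL4c untreated, and Sparc and the collagen genes of the TG libraries numbered 1 lie below those numbered 2 and 3.

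The first comparison asks what SPARC protein did to IL4c macrophages. Of the 10 genes, Stab1 alone passed the test, and it rose. Of all tested genes, 27.8% were called and 15.1% were called higher, so 1 call of 10 lies below that background. Libraries did not overlap between the groups for 2 of the 10 (Stab1 and Itgb1) and for 50.4% of all genes. The median log2 fold change over the 10 genes was 0.16, and over all tested genes it was -0.00137.

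Stab1 (GRCm38 chr14:31139013-31168641, minus strand) had 167, 199 and 183 CPM in IL4c with SPARC (libraries 1, 2 and 3), against 55.6, 85.7 and 99.95 CPM in IL4c untreated. Every library with SPARC exceeded every untreated library. The rise was 2.28-fold (log2 1.19 ± 0.25 SE, edgeR adjusted p = 0.00704). It passed in each of the 12 fits that left out 1 library, with adjusted p of 0.00447 to 0.0262. The gene Nt5dc2 lies over part of Stab1 on the opposite strand, and the strandedness of the counting is not given in the sources used here. Counts of Nt5dc2 were 2.76% to 4.80% of those of Stab1 in IL4c with SPARC, against 13.1% to 16.9% in IL4c untreated, and its own counts were 197 to 341 against 224 to 636.

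The beta 3 chain went the other way in these cells. Itgb3 (chr11:104608000-104670476, plus strand) had 1.19, 0.469 and 6.12 CPM in IL4c with SPARC, against 12.1, 4.93 and 24.4 CPM in IL4c untreated. It was lower with SPARC in each same-number pair, by 3.35, 3.40 and 2.00 on the log2 scale, although the libraries of the groups overlapped. Without the block the difference did not pass (log2 -2.42 ± 1.22 SE, edgeR adjusted p = 0.172). With the number as a block it passed (log2 -2.73 ± 0.42 SE, edgeR adjusted p = 0.00279), and it passed without the block once both TG libraries numbered 1 were left out (edgeR adjusted p = 0.0447; 42.1% of all genes were called in that fit).

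The other receptor chains differed little. Itgb1 (chr8:128685654-128733200, plus strand) had 1218, 1353 and 1182 CPM in IL4c with SPARC, against 1145, 1057 and 774 CPM in IL4c untreated. The libraries did not overlap, but the difference did not pass (log2 0.33 ± 0.17 SE, edgeR adjusted p = 0.171). Itgav (chr2:83724397-83806916, plus strand) had 190, 208 and 171 CPM in IL4c with SPARC, against 166, 172 and 105 CPM in IL4c untreated. The alpha v chain was higher with SPARC in each pair; it passed with the block (log2 0.39, edgeR adjusted p = 0.0452) and not without it (log2 0.36 ± 0.18 SE, edgeR adjusted p = 0.175). Itgb5 (chr16:33829665-33949338, plus strand) had 89.4, 119 and 83.9 CPM in IL4c with SPARC, against 64.1, 102 and 112 CPM in IL4c untreated, with pairs in both directions.

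Among the matrix genes, Fn1 (chr1:71585520-71653200, minus strand) had 4337, 4340 and 2695 CPM in IL4c with SPARC, against 6537, 6169 and 3044 CPM in IL4c untreated. Fibronectin RNA was lower with SPARC in each pair while the groups overlapped. It passed with the block (log2 -0.43 ± 0.14 SE, edgeR adjusted p = 0.0449) and not without it (log2 -0.47 ± 0.61 SE, edgeR adjusted p = 0.611). Sparc and the collagen genes were near the bottom of the range here, with 9 to 192 counts in any IL4c library, and in bulk libraries fewer cells of a type and less RNA per cell cannot be told apart. Sparc (chr11:55394500-55423183, minus strand) had 0.607, 0.888 and 2.11 CPM in IL4c with SPARC, against 0.811, 0.484 and 2.18 CPM in IL4c untreated. The gene of the added protein thus showed no called difference (log2 0.04 ± 1.18 SE, edgeR adjusted p = 0.986). Col1a1 had 0.396, 1.33 and 2.19 CPM in IL4c with SPARC, against 0.422, 0.272 and 1.36 CPM in IL4c untreated (log2 0.90 ± 1.19 SE, edgeR adjusted p = 0.618). Col1a2 had 0.870, 1.78 and 4.94 CPM in IL4c with SPARC, against 0.811, 1.27 and 4.23 CPM in IL4c untreated (log2 0.25 ± 1.22 SE, edgeR adjusted p = 0.905). Both collagen I genes had overlapping groups; Col1a2 was higher with SPARC in each pair, and neither passed with the block. Col3a1 had 1.16, 1.06 and 1.16 CPM in IL4c with SPARC, against 2.87, 0.424 and 1.31 CPM in IL4c untreated, with pairs in both directions (log2 -0.43 ± 1.08 SE, edgeR adjusted p = 0.803). Over the 10 genes, 4 were higher in all 3 same-number pairs and 2 lower in all 3, and 72.4% of all tested genes moved 1 way in all 3. With the block 4 of the 10 passed (Stab1, Itgb3, Itgav and Fn1), against 45.2% of all genes.

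The same question in TG macrophages gave no call among the 10 genes. All genes gave 11.3% called, and without the block no member reached an unadjusted p under 0.05. DESeq2 also called none of the 10 (17.3% of all genes), and the groups overlapped for all 10, while they did not overlap for 30.5% of all genes. Fibronectin and collagen levels were higher with SPARC in every same-number pair, and they passed in part with the block.

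Fn1 had 6038, 1461 and 1719 CPM in TG with SPARC, against 2569, 778 and 1103 CPM in TG untreated. Libraries numbered 1 were the highest of both groups, which overlapped. The pairs differed by log2 1.23, 0.91 and 0.64. The difference passed with the block (log2 0.93 ± 0.14 SE, edgeR adjusted p = 0.00396) and not without it (log2 1.05 ± 0.61 SE, edgeR adjusted p = 0.316). Fn1 took 0.0790% of all counts in its lowest library, which was TG untreated number 2, and 0.639% in its highest, IL4c untreated number 1.

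Col1a1 (chr11:94936224-94953042, plus strand), which encodes the alpha 1 chain of type I collagen, had 11.6, 74.5 and 86.6 CPM in TG with SPARC, against 1.65, 28.2 and 27.2 CPM in TG untreated. Col1a2 (chr6:4504814-4541544, plus strand), its alpha 2 chain, had 8.13, 71.8 and 80.1 CPM in TG with SPARC, against 1.93, 54.6 and 47.7 CPM in TG untreated. Col3a1 (chr1:45311538-45349706, plus strand) had 5.91, 25.9 and 35.1 CPM in TG with SPARC, against 0.591, 19.5 and 16.0 CPM in TG untreated. In all 3 genes library number 1 was the lowest of its group by far, so the groups overlapped although every pair was higher with SPARC. With the block, Col1a1 passed (log2 1.86 ± 0.30 SE, edgeR adjusted p = 0.0066) and so did Col1a2 (log2 0.95 ± 0.28 SE, edgeR adjusted p = 0.0463), while Col3a1 did not (log2 1.33, edgeR adjusted p = 0.119). Without it the adjusted p of the 3 genes was 0.349, 0.783 and 0.630.

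Sparc had 4.24, 33.3 and 36.1 CPM in TG with SPARC, against 1.23, 36.3 and 28.4 CPM in TG untreated. The pairs pointed both ways, and it passed neither without the block (log2 0.16 ± 1.04 SE, edgeR adjusted p = 0.948) nor with it (edgeR adjusted p = 0.304). Itgb3 had 1.8, 11 and 12.3 CPM in TG with SPARC, against 1.84, 37.2 and 39.6 CPM in TG untreated. The beta 3 chain was thus lower with SPARC in pairs 2 and 3 and close to equal in pair 1. It passed with the block (log2 -1.36, edgeR adjusted p = 0.0440) and not without it (log2 -1.65 ± 1.17 SE, edgeR adjusted p = 0.418).

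Stab1, the gene that rose in IL4c cells, had 315, 201 and 250 CPM in TG with SPARC, against 333, 204 and 304 CPM in TG untreated. The difference was log2 -0.13 ± 0.25 SE and did not pass (edgeR adjusted p = 0.793). Itgb1, Itgb5 and Itgav had log2 differences of -0.06, -0.26 and 0.25 and did not pass with or without the block. Over the 10 genes, 5 were higher in all 3 same-number pairs and 3 lower in all 3, and 58.3% of all tested genes moved 1 way in all 3. With the block 4 of the 10 passed (Itgb3, Fn1, Col1a1 and Col1a2), against 27.3% of all genes, and without both TG libraries numbered 1 the same fit again called these 4 (27.5% of all genes). In IL4c cells that last fit called 5 of the 10, Itgb1 being added, against 53.6% of all genes.

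**Figure D2:**
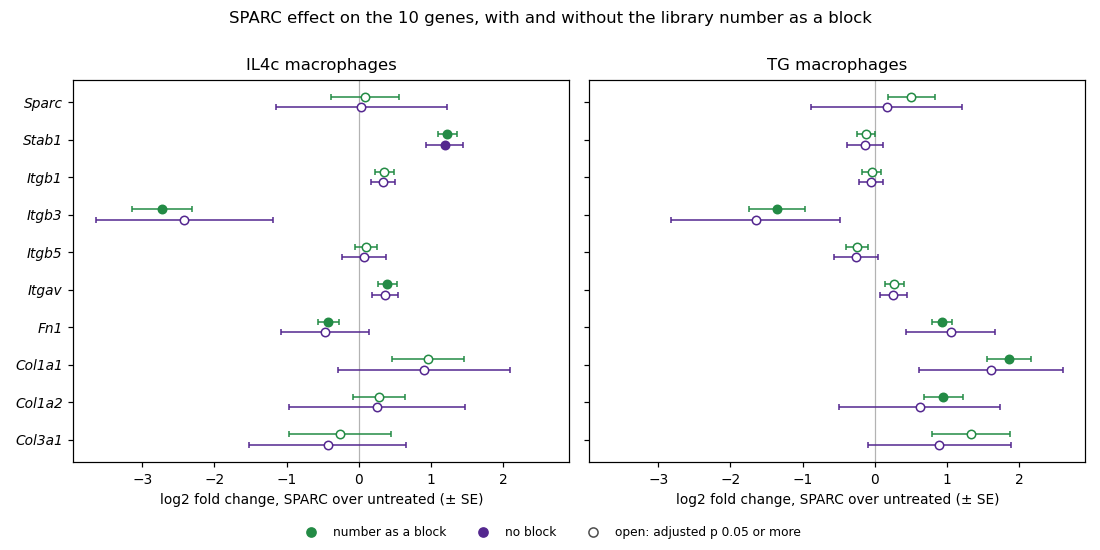
Log2 fold change of SPARC over untreated (± SE) for the 10 genes in IL4c macrophages (left) and TG macrophages (right), from edgeR fits with the library number as a block (green) and without it (purple); filled points have an adjusted p under 0.05. Without the block only Stab1 in IL4c cells is filled, at 1.19, and its TG value is -0.13.

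The difference between both SPARC effects was tested directly. Without the block no gene of 15232 passed (0.00%), while 1612 had an unadjusted p under 0.05 and DESeq2 called Stab1 among the 10 and 2.39% of all genes. For Stab1 the effect in IL4c minus that in TG was log2 1.32 ± 0.35 SE (edgeR adjusted p = 0.230). With the block Stab1 passed (log2 1.35 ± 0.18 SE, edgeR adjusted p = 0.0225) and so did Fn1 (log2 -1.35 ± 0.20 SE, edgeR adjusted p = 0.0286), where 3.10% of all genes were called. Without both TG libraries numbered 1 the fit with the block called the same pair, against 17.3% of all genes. Fn1 was thus lower with SPARC in every IL4c pair and higher with SPARC in every TG pair. The same difference without the block was log2 -1.52 ± 0.86 SE for Fn1 (edgeR adjusted p = 0.598).

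The injections were compared next, first in untreated wells. Sparc, Stab1, Itgb5 and Col1a1 were lower in IL4c macrophages, which is 4 of 10 genes called, against 21.0% of all genes called in either direction and 10.8% called lower. The median log2 fold change was -1.58 over the 10 genes and -0.05 over all tested genes. Libraries did not overlap for Stab1, Itgb5, Col1a1 and Fn1, and for 39.0% of all genes. DESeq2 called 8 of the 10, against 27.7% of all genes. Total-count scaling moved the median of all genes to -0.16.

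Stab1 was 3.48-fold lower in IL4c untreated than in TG untreated (log2 -1.80 ± 0.26 SE, edgeR adjusted p = 0.00237), with no overlap of libraries. Itgb5, the beta 5 chain, was 2.55-fold lower (log2 -1.35 ± 0.31 SE, edgeR adjusted p = 0.0142), again with no overlap. Stab1 passed in each of the 12 fits that left out 1 library. Itgb5 did not pass without TG untreated number 2 (edgeR adjusted p = 0.0607), TG untreated number 3 (0.0595) or IL4c untreated number 1 (0.0561).

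Sparc averaged 1.16 ± 0.901 CPM in IL4c untreated and 21.95 ± 18.4 CPM in TG untreated (SD, n = 3 each). It was 18.7-fold lower in the fit (log2 -4.22 ± 1.22 SE, edgeR adjusted p = 0.0359), yet its libraries overlapped, as TG untreated number 1 had 1.23 CPM. The call was kept in only 3 of the 12 fits that left out 1 library, those without TG untreated number 1, TG with SPARC number 1 or IL4c with SPARC number 3. In the other 9 the adjusted p was 0.0527 to 0.126. Without both TG libraries numbered 1 the difference was log2 -4.75 (edgeR adjusted p = 0.000493). Without both IL4c libraries numbered 3 it was log2 -5.07 and did not pass (edgeR adjusted p = 0.0671).

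Col1a1 averaged 0.684 ± 0.588 CPM in IL4c untreated and 19.0 ± 15.0 CPM in TG untreated, 27.03-fold lower (log2 -4.76 ± 1.21 SE, edgeR adjusted p = 0.0224), and its libraries did not overlap. It did not pass without TG untreated number 2 (edgeR adjusted p = 0.0685), TG untreated number 3 (0.0603), IL4c untreated number 1 (0.0866) or IL4c untreated number 2 (0.0881). Nor did Col1a1 pass without both IL4c libraries numbered 3 (log2 -5.76, edgeR adjusted p = 0.0502). Col1a2 (log2 -4.02, edgeR adjusted p = 0.0508) and Col3a1 (log2 -2.98, edgeR adjusted p = 0.0783) missed the threshold with all libraries. Both passed without both TG libraries numbered 1 (edgeR adjusted p = 0.00160 and 0.00119). Fn1 had higher values in every IL4c untreated library than in every TG untreated library, but missed the threshold with all libraries (log2 1.82 ± 0.63 SE, edgeR adjusted p = 0.0643) and passed without that TG pair (log2 2.49, edgeR adjusted p = 0.00153). That fit called 7 of the 10 genes, against 38.8% of all genes.

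In SPARC-treated wells 6 of the 10 genes differed between the injections, against 21.0% of all genes in either direction and 10.1% called lower. Itgb1 alone was higher in IL4c, and Sparc, Itgb5 and the 3 collagen genes were lower. Itgb1 averaged 1251 ± 90.2 CPM in IL4c with SPARC and 682 ± 11.9 CPM in TG with SPARC, which is 1.83-fold higher (log2 0.87 ± 0.17 SE, edgeR adjusted p = 0.00652). It passed in each of the 12 fits that left out 1 library. Libraries did not overlap for 8 of the 10 genes, all but Itgb3 and Fn1, and for 41.4% of all genes. Itgb5 was lower by log2 -1.02 ± 0.30 SE (edgeR adjusted p = 0.0395) and passed in 5 of those fits. It did not pass without any 1 of the TG libraries numbered 2, TG with SPARC number 3, the IL4c libraries numbered 2, or IL4c with SPARC number 1 or 3, where its adjusted p was 0.0582 to 0.150.

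Sparc was lower by log2 -4.35 ± 1.22 SE (edgeR adjusted p = 0.0319), Col1a1 by -5.46 ± 1.21 SE (0.0116), Col1a2 by -4.40 ± 1.30 SE (0.0383) and Col3a1 by -4.30 ± 1.15 SE (0.0261) in IL4c with SPARC against TG with SPARC. No library of these 4 genes overlapped. Leaving out 1 library of the SPARC groups ended several of these calls: without IL4c with SPARC number 1 or number 2 none of the 4 passed (edgeR adjusted p = 0.0514 to 0.128). Without TG with SPARC number 2 or 3, or IL4c with SPARC number 3, Col1a1 passed and Sparc, Col1a2 and Col3a1 did not (edgeR adjusted p = 0.0546 to 0.0964). Col1a2 also missed the threshold without TG untreated number 2 or 3 or IL4c untreated number 1 or 2 (0.0504 to 0.0558). Without both TG libraries numbered 1 all 4 passed, with log2 differences of -4.77 to -5.95 and edgeR adjusted p of 0.00018 to 0.00114, and 36.1% of all genes were called. Without both IL4c libraries numbered 3 Col1a1 alone of the 4 passed (edgeR adjusted p = 0.0342). Sparc, Col1a2 and Col3a1 then had edgeR adjusted p of 0.0586 to 0.0942. Stab1 was lower in every IL4c library with SPARC than in every TG library with SPARC, but the difference did not pass (log2 -0.48 ± 0.25 SE, edgeR adjusted p = 0.191). Fn1 did not pass with all libraries (log2 0.30 ± 0.61 SE, edgeR adjusted p = 0.758). It was called higher in IL4c once both TG libraries numbered 1 were left out (log2 1.24, edgeR adjusted p = 0.0265). That fit called 7 of the 10 genes, against 36.1% of all genes.

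Markers of stromal cells were followed in the same libraries as Sparc and collagen. The 14 genes of a fibroblast list summed to 269 to 334 CPM in IL4c with SPARC, 25.8 to 56.2 CPM in IL4c untreated, 232 to 388 CPM in TG with SPARC and 21.4 to 228 CPM in TG untreated. Pdpn (podoplanin, also made by activated macrophages) led the list, followed by Dcn (decorin) and Pi16. Of these genes, Dpep1 stayed under 3 counts in every library, and 10 were tested. In IL4c cells 3 of the 10 rose with SPARC (Pdgfrb, Dcn and Pdpn), against 27.8% of all genes called. In TG cells 1 rose (Pdgfrb), against 11.3% of all genes, and none fell in either. Pdgfra, a receptor that marks fibroblasts, had 0.396, 10.1 and 8.44 CPM in TG with SPARC, against 0.684, 20.9 and 16.6 CPM in TG untreated. It was thus low in the TG libraries numbered 1, where Sparc and the collagen genes were low too, and at or under 1.14 CPM in every IL4c library. Thy1 and Pi16 were instead highest in number 1 of both TG groups. Thy1 had 6.22, 1.38 and 0.588 CPM in TG with SPARC, against 2.26, 0.756 and 0.525 CPM in TG untreated. Pdpn, Dcn, Fbn1, Col14a1 and Lamb1 were lowest in number 1 of both groups, like Pdgfra. For Pdgfrb and Acta2 the place of number 1 differed between the groups. In pairs 2 and 3 of TG cells Pdgfra and Dcn were lower with SPARC, 6 of the 10 tested list genes (Pdpn, Pdgfrb and Fbn1 among them) were higher like the collagen genes, and 2 differed in direction. No share over all genes was taken for these pairs. Between injections the list moved both ways: in untreated wells Pi16 and Col14a1 were higher in IL4c and Pdpn and Pdgfrb lower, and in SPARC-treated wells Dcn (log2 2.78), Pi16 (5.63) and Col14a1 (2.81) were higher and Pdgfra, Thy1 and Acta2 lower. All genes gave 21.0% called in untreated and in SPARC-treated wells. A mesothelial list of 12 genes summed to 3.27 to 5.59 CPM in IL4c with SPARC, 0.484 to 2.89 CPM in IL4c untreated, 1.13 to 2.70 CPM in TG with SPARC and 0.754 to 13.0 CPM in TG untreated. The part of stromal cells in the levels of Sparc and collagen was not tested.

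**Figure D3:**
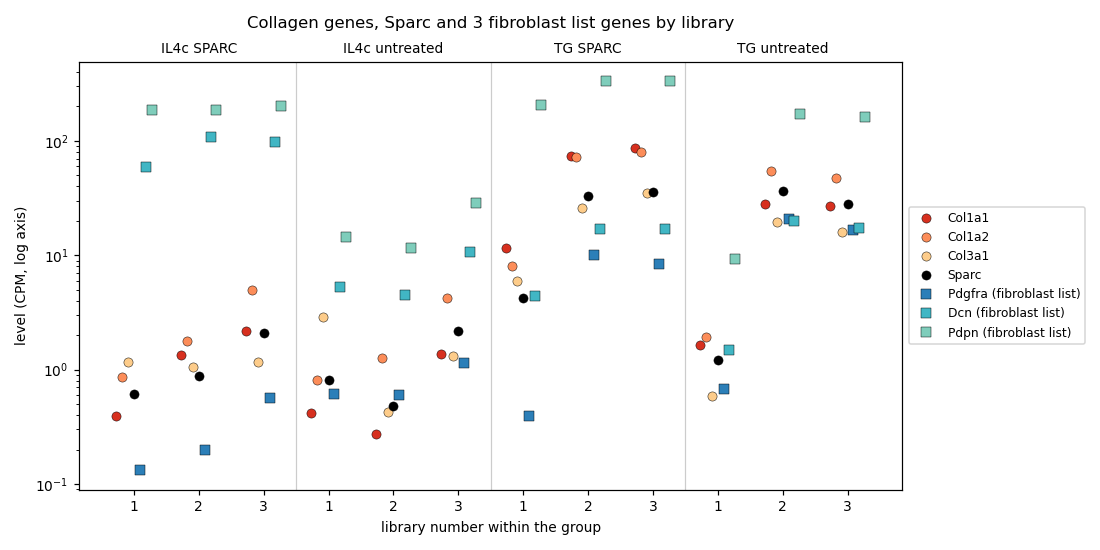
Level (CPM, log axis) of Col1a1, Col1a2, Col3a1 and Sparc (circles) and of 3 fibroblast list genes, Pdgfra, Dcn and Pdpn (squares), in each of the 12 libraries. The TG libraries numbered 1 have 4.24 CPM of Sparc with SPARC and 1.23 CPM untreated, and the other 4 TG libraries have 28.4 to 36.3 CPM.

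Ratios within a library do not depend on its scaling, and those of the collagen genes were looked at after the values were seen, so they carry no test. Counts of Col1a1 per count of Col1a2 were 1.43, 1.04 and 1.08 in TG with SPARC, against 0.854, 0.516 and 0.569 in TG untreated. The libraries did not overlap, and number 1, with few collagen counts, had the highest ratio of each group. In IL4c cells the same ratio was 0.455, 0.75 and 0.443 with SPARC, against 0.520, 0.214 and 0.321 untreated, from few counts. Counts of Sparc per count of Col1a2 were 0.521, 0.463 and 0.451 in TG with SPARC, against 0.634, 0.665 and 0.594 in TG untreated. This ratio did not overlap between the TG groups either and was lower with SPARC. Within each group it stayed narrow, over TG libraries whose Sparc level ran between 1.23 and 36.3 CPM. Col3a1 per Col1a2 was 0.726, 0.361 and 0.439 in TG with SPARC, against 0.306, 0.358 and 0.335 in TG untreated.

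**Figure D4:**
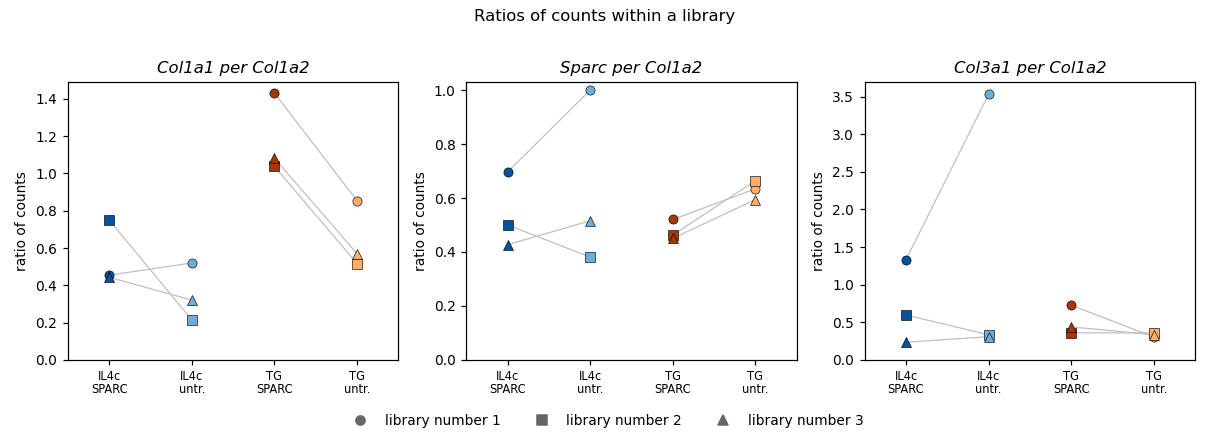
Ratio of the counts of Col1a1, Sparc and Col3a1 to those of Col1a2 within each of the 12 libraries; symbols give the library number and grey lines join libraries of 1 injection with the same number. Col1a1 per Col1a2 lies between 1.04 and 1.43 in TG with SPARC and between 0.516 and 0.854 in TG untreated.

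Among the 3 beta chains, Itgb1 held most of the summed FPKM in every library. Its share was 89.8% to 91.7% in IL4c with SPARC, 83.2% to 92.6% in IL4c untreated, 68.9% to 79.5% in TG with SPARC and 66.2% to 74.3% in TG untreated. Itgb5 held 8.01% to 10.2%, 6.80% to 15.1%, 20.3% to 30.3% and 25.5% to 31.6% in the same groups. The beta 5 share was thus higher in every TG library than in every IL4c library. Itgb3 held 0.0201% to 0.303% in IL4c with SPARC, 0.266% to 1.68% in IL4c untreated, 0.134% to 0.784% in TG with SPARC and 0.148% to 2.17% in TG untreated. Itgb3 was therefore the smallest of the 3 in all 12 libraries.

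**Figure D5:**
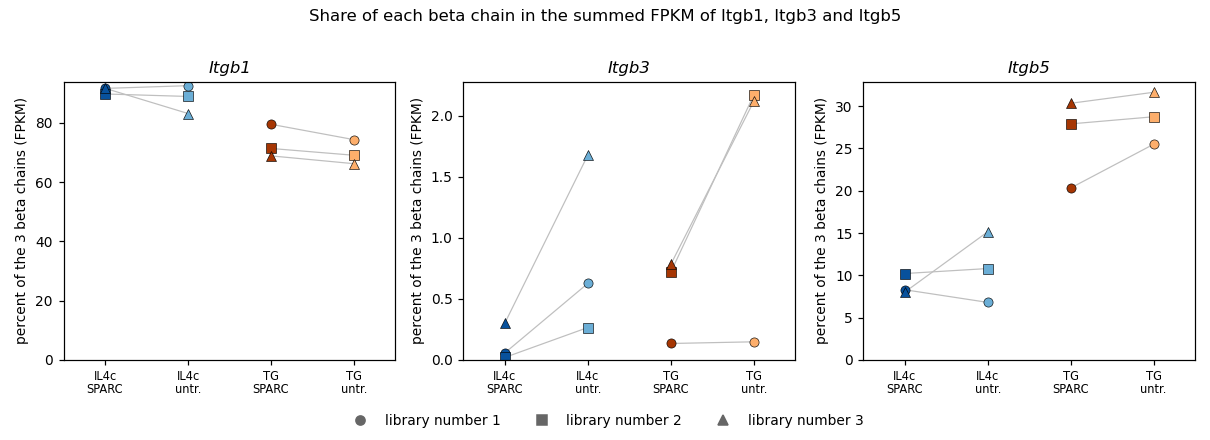
Share of Itgb1, Itgb3 and Itgb5 in their summed FPKM (percent) in each of the 12 libraries; the 3 panels have different axes. Itgb5 holds 6.80% to 15.1% in IL4c libraries and 20.3% to 31.6% in TG libraries.

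Likeness of profiles was measured as the root mean square difference of centred log2 CPM over the 12 libraries, 6 of each injection, so likeness reflects the difference between injections as well as that between libraries. Sparc and Col1a2 were each other's nearest gene among all 15232, at 0.352, and Adam12, a metalloprotease, and Timp3, a matrix metalloprotease inhibitor, came next to Sparc at 0.469 and 0.499. Col1a2 also had Bgn (biglycan) and Adam12 near it, at 0.537 and 0.581. Col1a1 had Col1a2, Adam12 and Sparc as its nearest genes at 0.707 to 0.787, and Col3a1 had Timp3, Serpina3n and Sparc at 0.769 to 0.804. Stab1 had Adck5, P2ry6 and Maged2 nearest at 0.226 to 0.372, and Fn1 had C130050O18Rik, Dennd4a and Samsn1 at 0.333 to 0.345. Itgb5 had Tlcd2, Lcp1 and Irf5 nearest at 0.277 to 0.30. Itgb1 (Carhsp1, Tnks1bp1, Prmt2) and Itgav (Ppp1r15b, Xrcc4, Agfg1) vary little over the libraries, and their nearest genes lay at 0.119 to 0.162. Itgb3 had no gene nearer than Akap2, at 0.782, followed by Syde2 and Fat3. Among the 10 themselves, Itgb1 and Itgav were the nearest pair, at 0.235.

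Other genes of the same system were followed in 6 lists, from which the 10 genes were left out. Of 12 other integrin chains tested, 4 rose with SPARC in IL4c cells and none fell (33.3% called, against 27.8% of all genes). Itgb7 averaged 268 ± 74.2 CPM in IL4c with SPARC and 56.6 ± 11.3 CPM in IL4c untreated (log2 2.24 ± 0.42 SE, edgeR adjusted p = 0.00379). Itga5, which pairs with beta 1 as the main fibronectin receptor, averaged 293 ± 39.8 CPM in IL4c with SPARC and 81.2 ± 5.91 CPM in IL4c untreated (log2 1.85 ± 0.35 SE, edgeR adjusted p = 0.00432). Itgb8 (log2 5.83) and Itga2, a collagen receptor chain (log2 2.18), also rose, to 47.4 and 0.409 CPM in IL4c with SPARC, against 0.843 and 0.0857 CPM in IL4c untreated. In TG cells none of the 12 passed. With the block 6 rose and 2 fell in IL4c cells, against 45.2% of all genes called, and 1 rose (Itga1) and 1 fell (Itga6) in TG cells, against 27.3%. Between injections Itga6, a laminin receptor chain, was higher in IL4c in both treatments (log2 1.13 in untreated and 1.17 in SPARC-treated wells) and Itga8 was lower in both (-5.18 and -4.91) at under 1 CPM. Itga3 was also lower in IL4c in untreated wells (-2.25), and in SPARC-treated wells Itga1 was lower (-2.61) and Itgb7 higher (1.34).

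Of 13 other collagen chains tested, 5 rose with SPARC in IL4c cells and none fell (38.5%, against 27.8% of all genes called). The list median was log2 2.20, against -0.00137 over all genes. Col4a1 and Col4a2, the main chains of basement membrane collagen, rose by log2 2.20 and 3.93. Col4a2 averaged 5.98 ± 1.55 CPM in IL4c with SPARC and 0.387 ± 0.109 CPM in IL4c untreated (edgeR adjusted p = 0.00199). Col5a1 (log2 3.89) and Col15a1 (log2 3.07) also rose, and each of these 4 averaged below 10 CPM with SPARC. Of the 10 tested genes of the fibroblast list, 3 rose in the same wells. They were Pdgfrb, Dcn (log2 3.68, edgeR adjusted p = 0.0112) and Pdpn (log2 3.40, edgeR adjusted p = 0.0140). The other 7 were not called, Pdgfra (log2 -1.40) and Thy1 (-0.47) among them. The part of other cells was not tested. In TG cells none of the 13 passed, and with the block 5 rose and 1 fell, against 27.3% of all genes called. In IL4c cells 7 rose and none fell with the block, against 45.2% of all genes. Between injections in untreated wells 1 was higher (Col14a1) and 7 were lower in IL4c, among them Col4a1 (log2 -2.73), Col4a2 (-2.99) and Col6a1 (-5.73); all genes gave 21.0% called and 10.8% called lower. In SPARC-treated wells 2 were higher in IL4c (Col14a1 and Col18a1) and 3 lower (38.5% called, against 21.0% of all genes).

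Of 22 enzymes and chaperones of collagen synthesis tested, 10 rose with SPARC and 1 fell in IL4c cells (50.0%, against 27.8% of all genes), and 8 rose and none fell in TG cells (36.4%, against 11.3% of all genes). The remaining 11 and 14 did not pass. With the block 11 rose and none fell in TG cells, against 27.3% of all genes called, and 10 rose and 1 fell in IL4c cells, against 45.2%. P4ha1, a catalytic subunit of prolyl 4-hydroxylase, averaged 213 ± 23.3 CPM in TG with SPARC and 84.6 ± 10.6 CPM in TG untreated (log2 1.33 ± 0.15 SE, edgeR adjusted p = 0.00120). Its partner P4hb rose by log2 0.87, P4ha2 by 1.89 and P3h1, a prolyl 3-hydroxylase, by 0.79 in TG cells. In IL4c cells Bmp1, which cleaves the ends of procollagen, rose by log2 3.78 ± 0.51 SE (edgeR adjusted p = 0.000748). Loxl2, a crosslinking enzyme, averaged 69.7 ± 23.9 CPM in IL4c with SPARC and 3.74 ± 0.780 CPM in IL4c untreated (log2 4.22, edgeR adjusted p = 0.000944), and Ppib and P3h1 rose by 0.71 and 0.84. The members of this list modify other secreted proteins too, P4hb among them. In untreated wells Crtap (log2 1.5), Tgm2 (1.76) and Adamts2 (2.91) were among 7 that were higher in IL4c, and Loxl3 (-1.53) was 1 of 2 that were lower. In SPARC-treated wells 6 were higher, Crtap, Plod1 and Mia3 among them, and 2 lower. Called were 40.9% of the list in untreated and 36.4% in SPARC-treated wells, against 21.0% of all genes in each.

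Of 25 adaptors and kinases of integrin adhesions tested, 6 rose and 3 fell with SPARC in IL4c cells (36.0%, against 27.8% of all genes). In TG cells 4 rose and 1 fell (20.0%, against 11.3% of all genes). Src, a kinase of adhesion sites, averaged 48.1 ± 14.7 CPM in IL4c with SPARC and 6.09 ± 2.48 CPM in IL4c untreated (log2 2.98 ± 0.40 SE, edgeR adjusted p = 0.000775). It also rose in TG cells, to 40.1 ± 6.42 CPM against 8.86 ± 4.27 CPM in TG untreated (log2 2.18 ± 0.39 SE, edgeR adjusted p = 0.00854). Bcar1, an adaptor that Src phosphorylates, rose by log2 3.65 in IL4c cells, and Cd47, which associates with beta 3 integrin, by 1.00. Itgb1bp1, which binds the beta 1 tail, rose by 0.55 in IL4c cells and 0.37 in TG cells. Parvg rose by 1.62 and Cd151, a tetraspanin of integrin complexes, fell by 0.49 in TG cells. With the block 8 rose and 8 fell in IL4c cells, against 45.2% of all genes called, and 5 rose and 5 fell in TG cells, against 27.3%. Between injections Tln2 and Ptk2 were higher in IL4c in both treatments, by log2 4.43 and 0.69 in untreated wells, where Bcar1 (-1.83) and Tns3 (-1.84) were lower. In SPARC-treated wells Itgb1bp1 was also higher (0.38) and Parva was lower (-3.60).

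Of 15 genes of collagen uptake and other matrix receptors, 1 rose with SPARC after each injection and none fell without the block (6.67% each, against 27.8% of all genes in IL4c and 11.3% in TG). That gene was Sdc4 (syndecan-4), which averaged 84.8 ± 22 CPM in IL4c with SPARC and 19.3 ± 7.16 CPM in IL4c untreated (log2 2.14 ± 0.28 SE, edgeR adjusted p = 0.000584). In TG cells Sdc4 averaged 129 ± 15.6 CPM with SPARC and 51.8 ± 4.09 CPM untreated (log2 1.32 ± 0.27 SE, edgeR adjusted p = 0.0140). With the block 5 rose and 5 fell in IL4c cells, against 45.2% of all genes called, and 3 rose and 3 fell in TG cells, against 27.3%. Mrc1, the mannose receptor, which also takes up collagen, had 25.7, 18.2 and 145 CPM in IL4c with SPARC, against 148, 139 and 649 CPM in IL4c untreated. In TG cells Mrc1 had 37.5, 63.1 and 77.8 CPM with SPARC, against 318, 148 and 255 CPM untreated. It was lower with SPARC in every pair, and fell with the block in IL4c cells (log2 -2.54 ± 0.36 SE, edgeR adjusted p = 0.00215) and in TG cells (log2 -2.00 ± 0.36 SE, edgeR adjusted p = 0.00974). Cd36, a scavenger receptor, fell with the block by log2 -1.07 in IL4c cells and -0.64 in TG cells, and Stab2, the relative of Stab1, by -3.45 and -3.63 at no more than 5.02 CPM. Msr1 rose with the block, by log2 0.65 in IL4c cells and 0.98 in TG cells. The others that rose with it were Sdc4, Sdc1, Cd44 and Ddr1 in IL4c cells and Sdc4 and Sdc3 in TG cells. In untreated wells 5 were lower in IL4c (Cd44, Sdc4, Mrc2, Ddr1 and Sdc1) and none higher (33.3% called, against 21.0% of all genes). Cd44, the hyaluronan receptor, was lower by log2 -0.71 there and by -0.35 in SPARC-treated wells.

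Of 13 other matricellular genes tested, 1 rose with SPARC in IL4c cells (7.69%, against 27.8% of all genes), none in TG cells (against 11.3%), and none fell in either. Smoc1, a relative of SPARC, averaged 1.32 ± 0.175 CPM in IL4c with SPARC and 0.346 ± 0.123 CPM in IL4c untreated (log2 1.92 ± 0.51 SE, edgeR adjusted p = 0.0193). With the block 3 rose and 4 fell in IL4c cells, against 45.2% of all genes called, and 3 rose in TG cells, against 27.3%. In untreated wells Fbln5 (log2 4.81) and Ecm1 (2.15) were higher in IL4c, and Ctgf (-3.80) and Fbln1, which had no count in IL4c untreated, were lower. Ecm1 averaged 978 ± 234 CPM in IL4c untreated and 220 ± 136 CPM in TG untreated. In SPARC-treated wells Fbln5, Ecm1 and Smoc1 were higher in IL4c and Ctgf was lower. Called were 30.8% of the list in untreated and in SPARC-treated wells, against 21.0% of all genes in each.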

How the data were processed

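PolyA RNA of 12 libraries of mouse peritoneal macrophages was measured in 4 groups of 3. The authors deposited expected counts per gene, not scaled, of which 7.97% are not whole, and FPKM values that the authors scaled by transcript length and depth. RSEM, STAR, bcl2fastq 1.8.4 and CASAVA are named in the submitters' processing notes. Not given in the sources used here: genome build, annotation and strandedness. GENCODE for GRCm38 holds 98.9% of the gene IDs when versions are ignored and 81.9% with them, and supplied the gene positions.

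Rounded counts entered edgeR 4.0.16 (quasi-likelihood test, R 4.3.3, TMM scaling, robust, filterByExpr with a minimum count of 10) over all 12 libraries, with 8 residual degrees of freedom and a common biological coefficient of variation of 0.308. Both values belong to the fit without the block, and fits with the block have fewer residual degrees of freedom. CPM used the unrounded counts, and SE is the log2 fold change over the square root of F. Depth was 31501941 to 42288785 counts per library; the floor of 3 counts covers counting error only. Fits were tested on simulated data. No libraries of a group were copies (chi-square per degree of freedom at least 10.6).

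The labels give libraries of each injection the same numbers. Deviations from group means correlated at 0.342 to 0.735 in all 6 same-number pairs within an injection and at -0.178 to 0.250 across injections, so numbers were read as pairs within an injection, from the data and not from a stated litter or day. Different numbers within an injection reached 0.507.

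Alternatives were RLE and total-count scaling, no filter, a filter of 5 CPM in 3 libraries, DESeq2 1.42.0, limma-voom and limma 3.58.1 on log2(FPKM + 1) or (FPKM + 0.1), compared groups alone, the block, and libraries left out. The 10 genes and the lists were chosen with earlier results of these data known. All 10 are described. Each list gives up to 4 called genes by smallest p, each of the 10 its 3 nearest profiles, and the macrophage and fibroblast marker lists their 3 highest genes. The B cell and mesothelial lists are given as sums, and marker lists of other cell types are not described. Nt5dc2, Pdgfra and Pdgfrb, other fibroblast genes, Col18a1, Mrc1, Cd36 and Stab2, the list genes named from the block, and the ratios fall outside this rule: these were chosen once values were seen.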

Additional observations from a re-analysis of the deposited data

Results flagged for a closer look

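The response of Stab1, the SPARC scavenger receptor, differed between the injections in the fit with the library number as a block: the SPARC effect in IL4c minus that in TG was log2 1.35 (edgeR adjusted p = 0.0225). Without the block it was 1.32 (edgeR adjusted p = 0.230), and over that result's other alternatives, single libraries left out included, the adjusted p was 0.0129 to 0.475.

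The response of Fn1, fibronectin, differed the other way in the same fit, by log2 -1.35 (edgeR adjusted p = 0.0286), and by -1.52 without the block (edgeR adjusted p = 0.598). Over its other alternatives the adjusted p was 0.00264 to 0.837.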

How the results depend on the processing

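With the library number as a block, paired within an injection, 4 of the 10 genes passed for SPARC in TG cells against 0 without it, 4 against 1 in IL4c cells, and 2 against 0 for the difference of both effects. The block changed no other call of the 10 genes for SPARC. Between injections, where libraries share only a number, the block gave 6 calls in untreated wells (against 4, Fn1 and Col1a2 being added) and 6 in SPARC-treated wells (against 6). Chosen after the data were seen, the block without both TG libraries numbered 1 called 4, 5 (Itgb1 added) and 2 (again Stab1 and Fn1). Without that TG pair and without the block, 2 passed in IL4c cells and 7 between injections in untreated wells. In SPARC-treated wells 7 passed between injections in that fit, against 6 with all libraries, Fn1 being added. DESeq2 called 1 gene (Stab1) for the difference, where it called 2.39% of all genes, and 8 between injections in untreated wells, where it called 27.7%. For that last comparison 4 passed, 2 with no filter on low counts, 2 with log2(FPKM + 1) and no filter, and 1 with the compared groups alone. In SPARC-treated wells 6 passed, and 2 with no filter, with limma-voom, with log2(FPKM + 1) and no filter, or without both IL4c libraries numbered 3. Leaving out 1 library gave 1 to 7 calls between injections in untreated wells, 1 to 6 in SPARC-treated wells, and 0, 1 and 0 throughout for SPARC in TG, SPARC in IL4c and the difference. The cause of these changes was not tested. Stab1 in IL4c cells passed under every alternative.

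No called value changed sign. Uncalled values that did were the Sparc effect in IL4c cells (-0.0231 with log2(FPKM + 1), with and without a filter, and -0.0146 with log2(FPKM + 0.1)), and, without both IL4c libraries numbered 3, the differences of Sparc (0.0479) and Itgav (-0.0178). With 1 library left out, ranges that crossed 0 were -0.63 to 0.90 (Sparc, IL4c), -0.38 to 0.75 (Sparc, TG), -0.82 to 0.73 (Sparc, difference), -0.67 to 1.28 (Col1a2, IL4c), -1.31 to 0.65 (Col1a2, difference), -0.87 to 0.37 (Col3a1, IL4c), -1.30 to 0.31 (Col1a1, difference), -0.14 to 0.23 (Itgb5, IL4c), -0.0905 to 0.23 (Itgav, difference), -0.18 to 0.046 (Itgb1, TG) and -0.29 to 0.0166 (Stab1, TG). Sparc and collagen counts of 9 to 192 in IL4c libraries limit what can be detected there.

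Without both TG libraries numbered 1, list counts that moved by over 1.5 times were, for SPARC in IL4c cells (42.1% of all genes called), 4 matricellular genes against 1, 7 integrins against 4, 14 integrin signalling genes against 9 and 7 uptake genes against 1, and in TG cells (14.6%) 3 collagens against 0 and 3 uptake genes against 1. Between injections in untreated wells (38.8%) they were 8 matricellular genes against 4, 6 integrins against 3, 15 signalling genes against 4 and 10 uptake genes against 5, and in SPARC-treated wells (36.1%) 10 matricellular genes against 4, 16 signalling genes against 4, 9 collagens against 5, 14 synthesis genes against 8 and 9 uptake genes against 1. For the difference (5.41%) 4 integrins, 3 collagens, 2 signalling, 2 synthesis, 1 matricellular and 1 uptake gene passed, against 0 each.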
